A study of Mus musculus with 8 samples.

Results

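Glucose-6-phosphate is the point in the hepatocyte where glucose uptake, glycogen storage, glycolysis and glucose release meet. The genes examined here are 9 of the 25690 genes in the table: G6pc, Slc37a4 and Slc2a2 of glucose release and transport, Gckr and Khk of hexose entry, Gys2 and Pygl of glycogen turnover, and Pklr and Mlxipl of the glycolytic end. They were taken by name, the Ensembl identifiers being matched to GENCODE symbols on mm10. The set was chosen with earlier results of these data known. All 9 were found, and all 9 were among the 10250 genes tested. The comparison is between liver RNA of mice with a hepatic FOXO1 knockout (4 libraries, numbered 3, 9, 10 and 11) and of wildtype control mice (4 libraries, numbered 1, 3, 10 and 12). The sources used here do not give strain, age, sex, feeding state, time of collection or the driver of the deletion. Nor do they state that each library came from a mouse of its own, and the p-values therefore cover the spread among libraries, which may be technical. The design text states the aim as the change of the liver transcriptome without Foxo1.

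Glucose enters and leaves hepatocytes through GLUT2, the product of Slc2a2, and is phosphorylated by glucokinase, which the product of Gckr holds in the nucleus when glucose is low. In the fasted liver, glucose-6-phosphate made from glycogen or by gluconeogenesis is carried into the endoplasmic reticulum by the Slc37a4 product and hydrolysed there by G6pc, which insulin represses and FoxO1 is known to activate. Mlxipl encodes ChREBP, a transcription factor that responds to hexose phosphates and drives Pklr, the liver pyruvate kinase gene, along with genes of fructose use and fat synthesis.

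The targeted gene was low in each knockout library. Foxo1 lay between 0.212 and 0.375 FPKM in knockout libraries and between 3.01 and 3.81 FPKM in wildtype libraries, where FPKM is the fragment count divided by transcript length and library size. Depth was estimated at about 27000000 to 35300000 fragments per library from the FPKM value of 1 fragment. At that depth the lowest value of any of the 9 genes, G6pc in knockout 3, stands for about 1181 fragments, so counting error is small beside the spread between libraries. In knockouts 3 and 11 the acute phase genes were high (Saa1 at 28413 and 33012 FPKM, against 573 and 266 FPKM in knockouts 9 and 10 and 78.3 to 195 FPKM in wildtype libraries), and their part in the results below was not tested beyond leaving both libraries out.

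The promoters of 4 of the genes that hold a match to a searched motif are shown. That of Mlxipl, which also holds a match, is not shown. RefSeq start sites on GRCm38.p6 (mm10) gave 12 promoters for 8 of the 9 genes, each from 250 bases before to 50 bases after the start. The motifs searched on both strands were CAAAACA, the core of insulin response sequences to which FoxO1 binds, the forkhead sequence GTAAACA, the E-box CACGTG, and the paired E-box form of carbohydrate response elements, which is known by name as ChoRE. None of these overlaps another in the windows below, where capitals mark each match.
G6pc (chr11:101367466-101367765, plus strand): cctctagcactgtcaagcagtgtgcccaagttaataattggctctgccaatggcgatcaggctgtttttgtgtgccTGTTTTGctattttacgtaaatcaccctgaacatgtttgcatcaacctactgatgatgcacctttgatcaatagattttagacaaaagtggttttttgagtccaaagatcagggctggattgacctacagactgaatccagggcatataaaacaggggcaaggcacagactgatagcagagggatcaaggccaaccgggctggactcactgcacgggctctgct
Gckr (chr5:31297313-31297612, plus strand): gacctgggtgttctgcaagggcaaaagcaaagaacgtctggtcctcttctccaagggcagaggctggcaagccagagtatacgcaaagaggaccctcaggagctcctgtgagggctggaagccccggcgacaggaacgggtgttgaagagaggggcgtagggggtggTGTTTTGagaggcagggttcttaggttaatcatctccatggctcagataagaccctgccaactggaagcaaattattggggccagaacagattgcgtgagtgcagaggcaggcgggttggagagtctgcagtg
Khk (chr5:30921309-30921608, plus strand): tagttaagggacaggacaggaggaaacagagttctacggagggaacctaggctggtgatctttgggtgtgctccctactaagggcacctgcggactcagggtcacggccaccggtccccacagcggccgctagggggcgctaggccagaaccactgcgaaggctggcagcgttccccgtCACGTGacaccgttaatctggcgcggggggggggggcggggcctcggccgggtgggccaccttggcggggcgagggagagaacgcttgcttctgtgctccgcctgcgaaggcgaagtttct
Pklr (chr3:89136373-89136672, plus strand): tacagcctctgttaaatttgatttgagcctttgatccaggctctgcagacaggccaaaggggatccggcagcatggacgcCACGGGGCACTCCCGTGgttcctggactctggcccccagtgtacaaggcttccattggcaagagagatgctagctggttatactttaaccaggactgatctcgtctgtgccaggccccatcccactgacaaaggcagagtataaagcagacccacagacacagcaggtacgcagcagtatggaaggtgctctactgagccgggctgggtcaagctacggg

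The match of CAAAACA begins 174 bases before the start of G6pc and 83 bases before that of Gckr, on the minus strand in both, so it reads TGTTTTG above. Of 32851 RefSeq promoters of the same length 6.28% hold this sequence. Among the 8 genes, which have 12 promoters between them, 2 do. The sequence GTAAACA is in 3.65% of promoters and in 0 of the 8 genes. An E-box CACGTG lies 71 bases before the start of Khk and 98 bases before the upstream start of Mlxipl, and 7.15% of promoters hold one. The paired form lies 170 bases before the downstream start of Pklr, from which the liver transcript is read, and it is in 15 of the 32851 promoters. A match describes letters and not binding, which was not measured here.

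Of the 9 genes 3 fell in the knockout liver, Gckr, Khk and Gys2, and 0 rose (limma, Benjamini-Hochberg adjusted p under 0.05 over all genes tested). Among all tested genes 11.7% were called lower and 2.7% higher, or 14.4% in either direction. The change of log2(FPKM + 1) was negative for 7 of the 9 genes, as it was for 62.3% of all tested genes. Its median was -0.51 over the 9 and -0.08 over all tested genes. An unadjusted p under 0.05 was reached by 6 of the 9, all lower in knockout liver, beside 22.7% of all tested genes that were lower at that threshold. Calls depended on scaling: with median-ratio scaling 485 genes were higher and 720 lower, and with quantile normalization 470 and 652, in place of 277 and 1195. Gckr was lower under both, while Khk and Gys2 did not pass under either. With quantile normalization 1 of the 9 genes was thus lower, beside 6.36% of all tested genes, and with the trend along transcript length removed again 1, beside 5.76%. Without knockouts 3 and 11, 2 of the 9 were lower (Slc37a4 and Gckr), beside 6.4%.

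**Figure D1:**
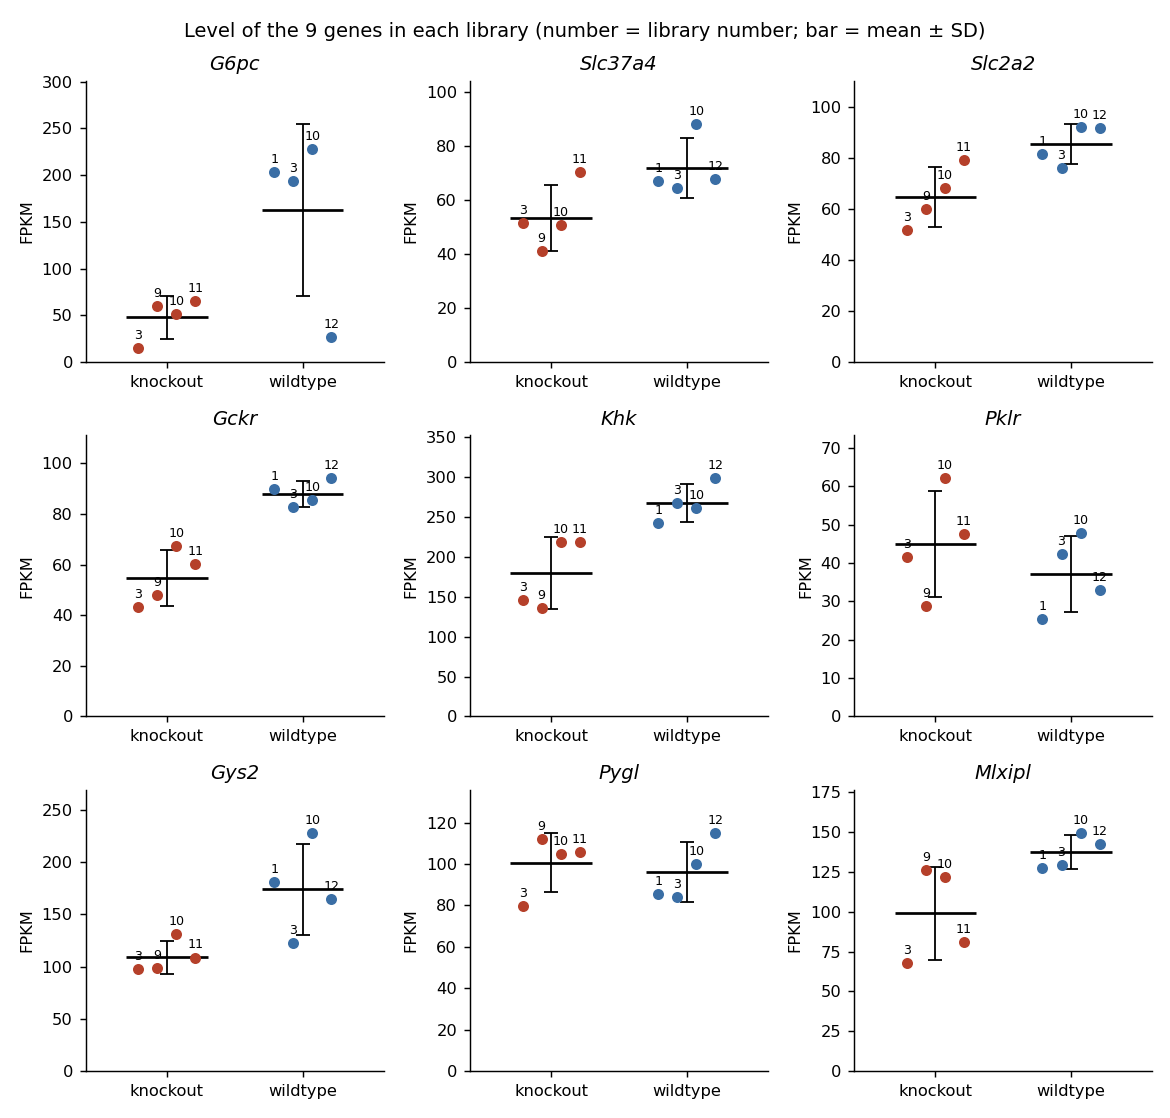
FPKM of each of the 9 genes (y axis, from 0) in the 4 knockout libraries (red) and the 4 wildtype libraries (blue), with library numbers, the mean (bar) and the SD (whisker). Gckr, Khk and Mlxipl show no overlap between groups, and G6pc of wildtype 12, at 26.2 FPKM, lies among the knockout values.

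G6pc, which encodes the liver glucose-6-phosphatase enzyme (ENSMUSG00000078650, chromosome 11, 101367561 to 101377903, plus strand), had the largest CV of the 9 in both groups, 47.6% in knockout and 56.6% in wildtype liver. Its FPKM was 14.9, 60.4, 50.9 and 65.3 in knockouts 3, 9, 10 and 11, against 203, 194, 228 and 26.2 in wildtypes 1, 3, 10 and 12. The groups overlapped through wildtype 12 alone, which was below knockouts 9, 10 and 11. The means were 47.8 ± 22.8 FPKM in knockout and 163 ± 92.2 FPKM in wildtype liver (SD, n = 4 each), and the log2 change of -1.55 did not pass (SE 0.70, 95% interval -3.14 to 0.03, limma adjusted p = 0.171). Without wildtype 12 the change was -2.29 and passed (limma adjusted p = 0.0234), and 7.27% of tested genes were then called lower. Wildtypes 1, 3 and 10 averaged 208 ± 17.6 FPKM (SD, n = 3), 7.95 times the value in wildtype 12. Over the 21 refitted alternatives the adjusted p of G6pc lay between 0.0234 and 0.419. What set wildtype 12 apart was not tested.

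Slc37a4, the transporter that brings glucose-6-phosphate to the G6pc enzyme (ENSMUSG00000032114, chromosome 9, 44396852 to 44402968, plus strand), changed less. Its FPKM was 51.5, 41.1, 50.7 and 70.1 in knockouts 3, 9, 10 and 11, against 66.9, 64.4, 88.1 and 67.7 in wildtypes 1, 3, 10 and 12. Knockout 11 lay above 3 of the 4 wildtype libraries, and the other knockouts below all of them. The log2 change was -0.44 (SE 0.16, limma adjusted p = 0.109). It passed in 2 of the 21 refitted alternatives, both without knockout 11, which held the highest knockout value. These were the fit without knockout 11 (-0.57, limma adjusted p = 0.0326) and that without knockouts 3 and 11 together (-0.63, limma adjusted p = 0.0492). In the others the limma adjusted p was up to 0.300. The ratio of G6pc to Slc37a4 FPKM was 0.289, 1.47, 1.004 and 0.931 in knockouts 3, 9, 10 and 11, against 3.03, 3.01, 2.59 and 0.387 in wildtypes 1, 3, 10 and 12. The FPKM of G6pc thus stood above that of Slc37a4 in every wildtype library but number 12, and clearly above it in knockout 9 alone among the knockouts. These are transcript levels, and protein was not measured here.

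Slc2a2, the gene of the glucose carrier GLUT2 of the hepatocyte surface (ENSMUSG00000027690, chromosome 3, 28697903 to 28731359, plus strand), was at 51.9, 59.9, 68.0 and 79.0 FPKM in knockouts 3, 9, 10 and 11. In wildtypes 1, 3, 10 and 12 it was at 81.5, 76.2, 92.2 and 91.8 FPKM. Knockout 11 exceeded wildtype 3, and otherwise the groups were apart. The log2 change was -0.41 (SE 0.13, 95% interval -0.71 to -0.11, limma adjusted p = 0.0734). Without knockout 11, which held the highest knockout value, it was -0.51 and passed (limma adjusted p = 0.0324). Slc2a2 passed in that 1 alone of the 21 refitted alternatives, with a limma adjusted p of up to 0.218.

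Gckr, whose product binds and inhibits glucokinase (ENSMUSG00000059434, chromosome 5, 31297443 to 31327314, plus strand), gave the most stable call. Its FPKM was 43.4, 47.9, 67.5 and 60.3 in knockouts 3, 9, 10 and 11, against 89.8, 82.6, 85.4 and 94.1 in wildtypes 1, 3, 10 and 12. The highest knockout value was below the lowest wildtype value, and wildtype libraries varied little (CV 5.73%) beside knockout libraries (20.2%). The means were 54.8 ± 11.1 FPKM in knockout and 88.0 ± 5.04 FPKM in wildtype liver (SD, n = 4 each), so that the knockout level was 62.3% of wildtype. Gckr fell by 0.69 on the log2 scale (SE 0.14, limma adjusted p = 0.0121) and passed in all 21 refitted alternatives, with an adjusted p of at most 0.0436.

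Khk, ketohexokinase, which phosphorylates fructose (ENSMUSG00000029162, chromosome 5, 30921431 to 30931248, plus strand), had the highest level of the 9 genes in both groups. It was at 145, 135, 219 and 219 FPKM in knockouts 3, 9, 10 and 11, against 242, 268, 262 and 298 FPKM in wildtypes 1, 3, 10 and 12. The groups did not overlap, and knockouts 10 and 11 were nearer to wildtype than knockouts 3 and 9. Khk fell by 0.60 on the log2 scale (SE 0.17, limma adjusted p = 0.0461). That call lies close to the threshold: it held in 9 of 21 refitted alternatives, and in 2 of the 8 fits that left out a library (limma adjusted p up to 0.114). With the trend along transcript length removed the change was -0.42 (limma adjusted p = 0.12).

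**Figure D2:**
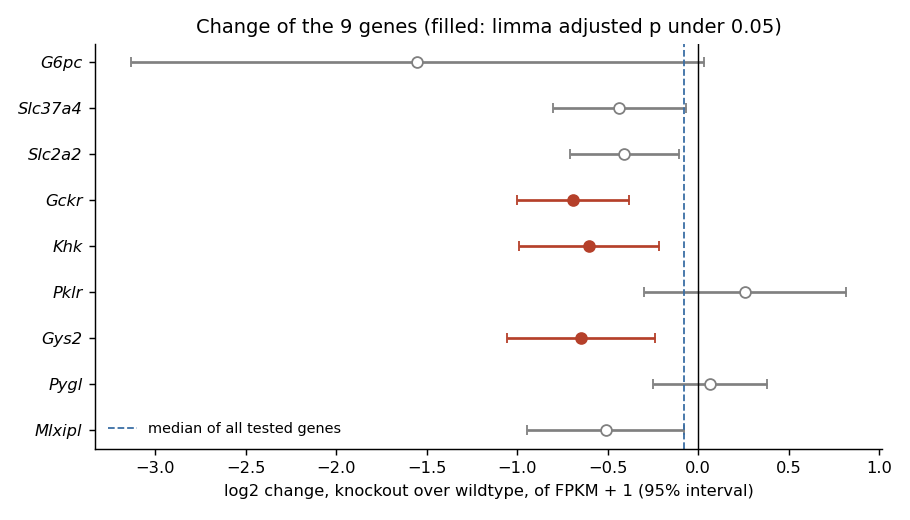
Change of log2(FPKM + 1), knockout over wildtype (x axis), of the 9 genes with 95% intervals. Filled points (Gckr, Khk, Gys2) passed, and the dashed line is the median of all tested genes, -0.08.

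In glycogen turnover the synthase gene was lower in knockout liver, and the phosphorylase gene did not pass. Gys2, the liver glycogen synthase (ENSMUSG00000030244, chromosome 6, 142422613 to 142473109, minus strand), was at 97.7, 98.4, 131 and 109 FPKM in knockouts 3, 9, 10 and 11, against 181, 122, 228 and 165 FPKM in wildtypes 1, 3, 10 and 12. Wildtype 3 fell below knockout 10, and the other wildtype libraries were above every knockout. Gys2 fell by 0.65 on the log2 scale (SE 0.18, limma adjusted p = 0.0442), a call held in 8 of 21 refitted alternatives and lost in 6 of the 8 fits without a library (limma adjusted p up to 0.112). Without both knockouts 3 and 11 the change was -0.57 (limma adjusted p = 0.181).

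Pygl, the liver glycogen phosphorylase (ENSMUSG00000021069, chromosome 12, 70190811 to 70231488, minus strand), was at 79.7, 112, 105 and 106 FPKM in knockouts 3, 9, 10 and 11. In wildtypes 1, 3, 10 and 12 it was at 85.4, 84.0, 100.2 and 115 FPKM. The groups overlapped, though knockout 3 lay below every wildtype library and wildtype 12 above every knockout. The log2 change was 0.07 with a 95% interval of -0.25 to 0.38 (limma adjusted p = 0.795). The ratio of Gys2 to Pygl FPKM was between 0.877 and 1.25 in knockout libraries and between 1.43 and 2.28 in wildtype libraries, so the ranges were apart. This ratio is given as a description, without a test.

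At the end of glycolysis, Pklr (ENSMUSG00000041237, chromosome 3, 89136142 to 89146784, plus strand) was at 41.6, 28.8, 62.1 and 47.5 FPKM in knockouts 3, 9, 10 and 11. In wildtypes 1, 3, 10 and 12 it was at 25.3, 42.5, 47.7 and 33.0 FPKM. The groups overlapped, and the log2 change was 0.26 with a 95% interval of -0.30 to 0.82 (limma adjusted p = 0.536). Of its exon bases 711 are shared with Hcn3 on the opposite strand, and reads of the overlap cannot be told apart without strand information.

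Mlxipl, the ChREBP gene (ENSMUSG00000005373, chromosome 5, 135089890 to 135138382, plus strand), was at 67.7, 126, 122 and 80.9 FPKM in knockouts 3, 9, 10 and 11. In wildtypes 1, 3, 10 and 12 it was at 127, 129, 149.6 and 143 FPKM. The groups did not overlap, although knockouts 9 and 10 came close to the lower wildtype libraries, and the log2 change of -0.51 did not pass (SE 0.19, limma adjusted p = 0.11). The low values were those of knockouts 3 and 11, the libraries with high acute phase genes. Without these libraries the change was -0.14 (limma adjusted p = 0.404), and leaving out the lowest knockout values must shrink it. The part of the acute phase genes in this was not tested. Without knockout 9 the change was -0.64 and passed (limma adjusted p = 0.049), in that 1 alone of the 21 refitted alternatives. The gene has 10 annotated transcripts from start sites far apart, which gene-level FPKM does not separate, and 235 of its exon bases are shared with the antisense gene Gm43500.

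**Figure D3:**
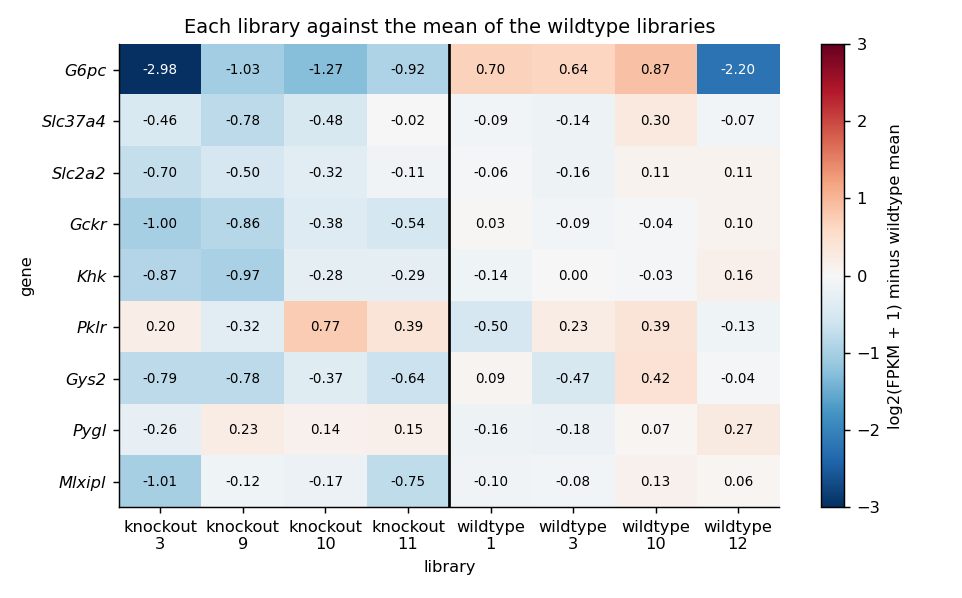
Each cell is log2(FPKM + 1) of a gene (row) in a library (column) minus the mean of the 4 wildtype libraries. G6pc stands at -2.98 in knockout 3 and -2.20 in wildtype 12, and Mlxipl at -1.01 and -0.75 in knockouts 3 and 11 against -0.12 and -0.17 in knockouts 9 and 10.

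Across libraries the 9 genes did not move as 1 block. Knockout 3 held the lowest value of 6 genes, and its median deviation from the wildtype mean was -0.79, against -0.15 over all tested genes. Knockout 9 was close to it with a median of -0.78, against 0.0019 over all tested genes, and held the lowest value of 2. Knockouts 10 and 11 had medians of -0.32 and -0.29, against -0.04 and -0.16 over all tested genes. Wildtype 10 was highest for 5 of the genes and wildtype 12 for 3, Gckr, Khk and Pygl. The 2 groups were wholly apart in Gckr, Khk and Mlxipl, 3 of the 9 genes, where the share among all tested genes was 21.3%. In each of these 3 the knockout values were the lower ones, as in 16.5% of all tested genes.

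On the FPKM scale, which is per transcript length, the order of mean levels in knockout liver was Khk, Gys2, Pygl, Mlxipl, Slc2a2, Gckr, Slc37a4, G6pc and Pklr. In that order Khk was clear of Gys2, and the ranges of every later pair of neighbours overlapped. In wildtype liver the order was Khk, Gys2, G6pc, Mlxipl, Pygl, Gckr, Slc2a2, Slc37a4 and Pklr, with ranges apart between Khk and Gys2, between Mlxipl and Pygl, and between Slc37a4 and Pklr. G6pc was thus number 8 in knockout and number 3 in wildtype liver.

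The 5 tested genes with the highest Pearson's r to G6pc on the log2 scale were Jam2, Mocs1, Tmem251, Nucks1 and Gm26532, with r of 0.957 to 0.932. Mocs1, a gene of molybdenum cofactor synthesis, had the highest level of these and was at 19.1, 26.5, 28.7 and 30.3 FPKM in knockouts 3, 9, 10 and 11, against 40.4, 37.5, 38.5 and 27.1 FPKM in wildtypes 1, 3, 10 and 12. The low value of wildtype 12 follows from the choice of genes by likeness to G6pc, and none of the 5 passed (limma adjusted p of 0.11 to 0.438, and unadjusted p under 0.05 for Mocs1). Those nearest to Gckr were Ndufb10, Apoa2, Nop10, Zfas1 and Tm4sf4, with r of 0.993 to 0.988, and each of them fell. Apoa2, an HDL apolipoprotein gene, fell by 1.12 on the log2 scale (limma adjusted p = 0.0111). These r values describe 8 libraries of 2 genotypes, and a shared difference between genotypes raises them.

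The other genes of the pathway were described in 5 lists of 91 genes, of which 72 were tested, 10 fell and 1 rose, beside 11.7% lower and 2.7% higher among all tested genes. The share of list genes called is near that background. Among the 11 tested enzymes of other glucose-6-phosphate and hexose entry reactions 1 fell and 0 rose, with a median log2 change of -0.11. It was Galk1, galactokinase, at 15.0 ± 1.49 FPKM in knockout and 20.5 ± 1.97 FPKM in wildtype liver (SD, n = 4 each), which fell by 0.43 (limma adjusted p = 0.024), though not with the length trend removed (-0.22, limma adjusted p = 0.109) or in 5 of the 8 fits without a library (limma adjusted p up to 0.071). G6pc3, the catalytic subunit found in most tissues, was at 4.40 ± 0.427 and 4.50 ± 0.659 FPKM in knockout and wildtype liver (log2 change -0.02, limma adjusted p = 0.917).

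Among 18 tested glycogen enzymes and regulators 2 fell and 1 rose, beside 11.7% lower and 2.7% higher among all tested genes. Their median log2 change was -0.14. Ugp2, which makes the UDP-glucose that glycogen synthase adds, was at 72.7, 127, 132 and 91.7 FPKM in knockouts 3, 9, 10 and 11, against 243, 239, 285 and 215 FPKM in wildtypes 1, 3, 10 and 12. The groups were far apart, Ugp2 fell by 1.24 on the log2 scale (SE 0.19, limma adjusted p = 0.00505), and it passed in all 21 refitted alternatives. Ppp1r3c, a subunit that targets protein phosphatase 1 to glycogen, was at 6.78, 29.2, 7.37 and 11.98 FPKM in knockouts 3, 9, 10 and 11, against 35.7, 45.3, 27.6 and 34.2 FPKM in wildtypes 1, 3, 10 and 12. Knockout 9 overlapped wildtype, and the fall of 1.52 (limma adjusted p = 0.0294) was lost without any single library but knockout 9, and without knockouts 3 and 11 (limma adjusted p = 0.155). Gaa, the lysosomal glucosidase that breaks glycogen down, rose by 0.31 (limma adjusted p = 0.0484), and lost the call in 7 of the 8 fits without a library. The groups did not overlap in Gaa or in Ugp2, where the share among all tested genes was 21.3%. Gbe1, the glycogen branching enzyme, had a log2 change of -0.27 and did not pass (limma adjusted p = 0.337).

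Of 18 tested genes of glycolysis and fructose breakdown 1 fell and 0 rose, beside 11.7% lower and 2.7% higher among all tested genes. Their median log2 change was -0.04. Tkfc, an enzyme of fructose breakdown, had a log2 change of -0.48 and did not pass (limma adjusted p = 0.275).

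ChREBP partners and known target genes gave 4 falls and 0 rises among 19 tested, beside 11.7% lower and 2.7% higher among all tested genes. Their median log2 change was -0.05. Arrdc4, an arrestin-domain gene that answers to glucose, was between 1.13 and 2.07 FPKM in knockout libraries and between 2.84 and 3.65 FPKM in wildtype libraries, and fell by 0.75 (limma adjusted p = 0.00678). Mid1ip1, which promotes fatty acid synthesis, fell by 0.92 (limma adjusted p = 0.0192). The list also holds Rgs16, a G protein signalling regulator, and Angptl8, a secreted regulator of lipoprotein lipase, which fell with log2 changes of -3.82 and -2.31 (limma adjusted p = 0.0037 and 0.0156). Leaving out knockouts 3 and 11 ended the call of Angptl8 (limma adjusted p = 0.107). Mid1ip1 passed in 15 of 21 refitted alternatives, and lost its call without wildtype 3, 10 or 12 or knockouts 3 and 11, with no filter and with the length trend removed (limma adjusted p of 0.0505 to 0.0569). The lipogenic members Fasn, Acly, Acaca, Scd1 and Thrsp did not pass, with log2 changes of -0.26, 0.14, 0.37, -0.51 and 0.52. Mlx, the partner with which ChREBP binds DNA, was at 40.4 ± 2.55 FPKM in knockout and 34.4 ± 2.98 FPKM in wildtype liver and did not pass (log2 change 0.23, limma adjusted p = 0.127).

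Of 6 tested hexose and lactate transporters 2 fell and 0 rose, beside 11.7% lower and 2.7% higher among all tested genes. Their median log2 change was -0.09. Slc16a7, the monocarboxylate transporter MCT2, was at 8.53, 6.34, 7.35 and 8.68 FPKM in knockouts 3, 9, 10 and 11, against 16.8, 12.3, 15.8 and 19.6 FPKM in wildtypes 1, 3, 10 and 12. It fell by 0.96 (limma adjusted p = 0.00505). Slc2a9, a carrier of urate, fell by 0.52 (limma adjusted p = 0.0122). Both passed in all 21 refitted alternatives. In neither did the groups overlap, where the share among all tested genes was 21.3%.

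**Figure D4:**
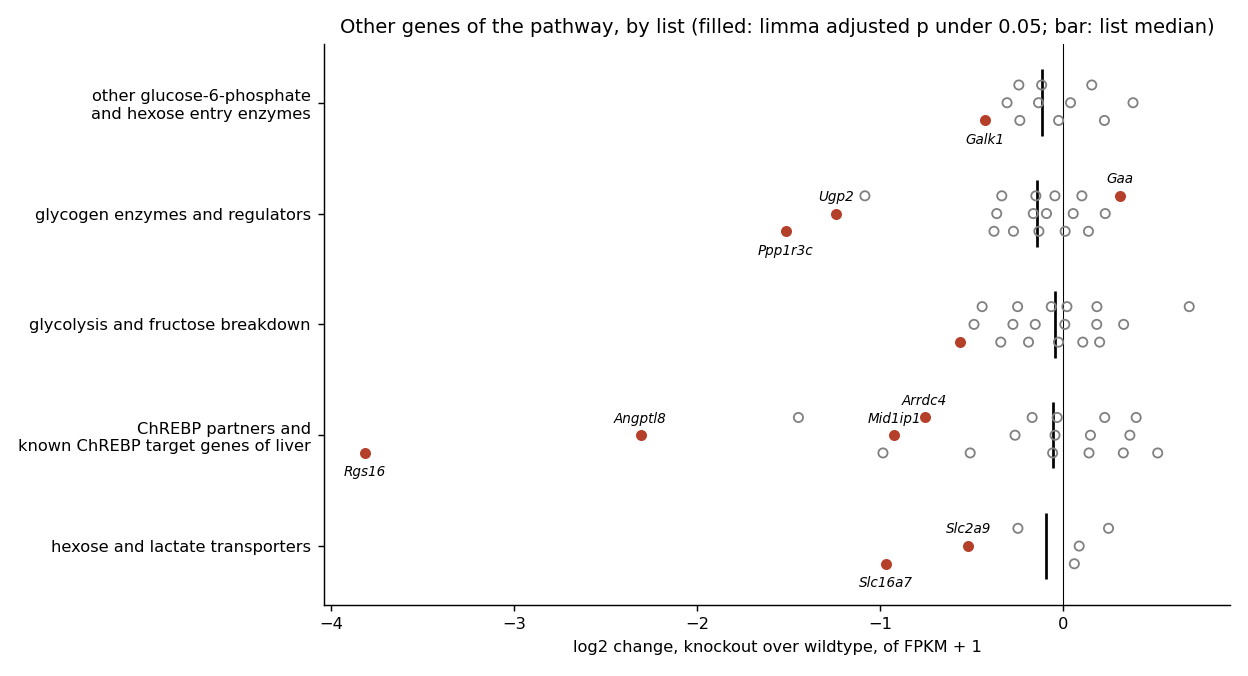
Change of log2(FPKM + 1), knockout over wildtype (x axis), of the 72 tested genes of the 5 pathway lists (rows). Filled points passed (10 lower, 1 higher), with names given except in the list of glycolysis and fructose breakdown, and each bar is a list median, from -0.14 to -0.04.

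The libraries carried hepatocyte markers at high levels, apart from Alb, listed at 0 in knockout 10 and at 20877 FPKM or more in the other libraries. In bulk liver fewer cells of a type and less RNA per cell cannot be told apart. Sinusoidal endothelial markers summed to 36.6 to 62.3 FPKM in knockout and 62.6 to 81.0 FPKM in wildtype libraries. Of 7 tested 2 fell (Stab1 and Fcgr2b), beside 11.7% of all tested genes, and Stab1 alone averaged 16.7 FPKM in knockout and 34.2 FPKM in wildtype libraries. Kupffer cell markers summed to 59.1 to 96.0 FPKM in knockout and 71.3 to 95.5 FPKM in wildtype libraries. Neutrophil markers summed to 2.88 to 149 FPKM in knockout and 1.47 to 5.22 FPKM in wildtype libraries. Of 9 markers of kidney, intestine and pancreas, organs that share several of the 9 genes, 8 stayed below 1 FPKM in every library and 4 of these were at 0 throughout. The 9 markers summed to 29.4 to 44.9 FPKM in knockout and 52.2 to 66.7 FPKM in wildtype libraries, and most of each sum came from the 1 marker tested. The 1 of them tested fell (log2 change -0.73), beside 11.7% of all tested genes. The part of these cell types in the results was not tested.

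**Figure D5:**
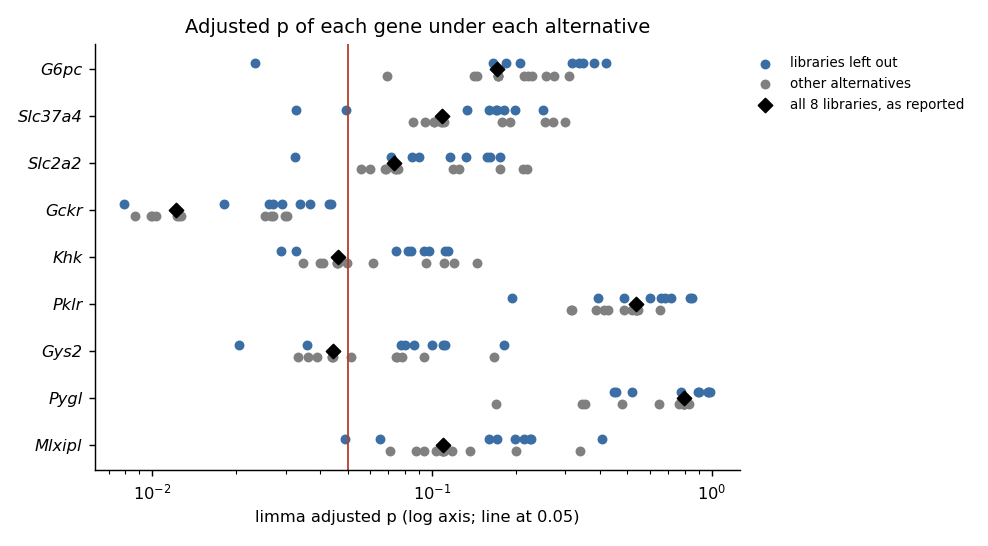
Limma adjusted p (x axis, log scale, line at 0.05) of each of the 9 genes with all 8 libraries (black), with libraries left out (blue) and under other alternatives (grey). Gckr lies left of the line throughout, Khk and Gys2 lie on both sides, and G6pc crosses it once, without wildtype 12.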

How the data were processed

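The deposited table holds 1 value per gene and library, taken as FPKM because of its range and because Cufflinks 2.2.1 is listed, with TopHat2 2.1.0, HTSeq and build mm10, in the submitters' processing notes. The sources used here give neither the tools' roles nor the annotation or strand setting. Per the labels' protocols, Trizol RNA was digested with DNase, cleaned on columns and made into Illumina libraries. No count model was used. An exact 0 can be a failed estimate. Names, coordinates and transcript lengths came from GENCODE M21, and promoters from RefSeq (GRCm38.p6).

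A mean of 1 FPKM or more over the 8 libraries was required. Log2(FPKM + 1), which understates changes of low genes, was fitted with limma 3.58.1 (R 4.3.3), on genotype alone, with a mean trend in the moderated variances, two-sided tests and Benjamini-Hochberg adjustment over 10250 genes at 0.05. Steps were tested on simulated data. Depth came from genes with 1 transcript above 1500 bases, whose lowest values cluster at 1 fragment. Named are the 9 genes, Foxo1, up to 6 passing genes per list (otherwise the 2 with the smallest adjusted p), the 5 genes most like G6pc and Gckr, and defining markers. G6pc3, Gbe1, Tkfc, Mlx, the lipogenic genes, Txnip and Klf10 were added with values in view, and some values are not reported here. The members and lists were chosen with earlier results of these data known. The 22 alternatives changed the pseudocount, the filter, the scaling or the variance model, weighted or left out libraries, added a replicate block, and used removal of length and GC trends (symmetric loess, span 0.5) and a threshold of 0.1. Of these 21 were refits.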

Additional observations from a re-analysis of the deposited data

Results flagged for a closer look

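In 6 of the 46 groups of 4 libraries examined, 1 library stood apart from the rest of its group, on values not put on the log2 scale. The measure was a gap beyond Dixon's 95% critical value, which chance gives in about 1 group in 20 if values are normal. G6pc was low in wildtype 12, at 26.2 FPKM, and so was the ratio of G6pc to Slc37a4 there, at 0.387. Both flags rest on the same G6pc value, so the groups examined are not independent. Slc37a4 was high in wildtype 10, at 88.1 FPKM. Among the other pathway genes Rgs16 was high in knockout 11, at 6.80 FPKM, Angptl8 was high in wildtype 3, at 312 FPKM, and Mid1ip1 was low in wildtype 1, at 25.2 FPKM.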

How the results depend on the processing

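The direction of change was kept by each of the 9 genes under the 21 refitted alternatives. Without 1 library each, 1 to 4 of the 9 genes were called lower and 0 higher, 599 to 1294 of all tested genes lower and 102 to 360 higher, and 6 to 11 pathway genes lower and 0 to 2 higher. Of the 9, 1 (Gckr) was called with no filter on low values, median-ratio scaling, quantile normalization, or the length or GC trend removed. In the same order of the last 4, 485, 470, 516 and 549 of all genes were higher, with 720, 652 and 585 lower for the first 3 of them, and 2, 3, 2 and 3 pathway genes were higher. With no filter, robust variances or no mean trend 0 pathway genes were higher. Without knockouts 3 and 11, 656 of all genes were lower, with 6 pathway genes lower and 2 higher. At a threshold of 0.1, 516 of all genes were higher, with 17 pathway genes lower and 4 higher. The numbers in the titles are not said to pair mice, and libraries sharing 3 or 10 deviated from their group means with a correlation of -0.0079 and 0.022. With the number as a replicate block 3 of the 9 genes were called lower, 1289 of all genes lower and 314 higher. The cause of these shifts was not tested. At about 1181 fragments or more behind each value of the 9 genes, depth limits them little.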

Other observations

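Khk and Gckr, which both fell, lie on the same strand of chromosome 5 with 366 kb between them. Of the 12 tested genes in that interval 1 was called lower and 1 higher, 8.33% lower against 11.7% of all tested genes, and their median log2 change was -0.09. The 2 genes were looked at together after their values were seen.

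Txnip, a glucose-responsive gene that restrains glucose uptake, was at 6.53, 5.94, 32.4 and 10.3 FPKM in knockouts 3, 9, 10 and 11, against 31.2, 35.8, 51.0 and 16.6 FPKM in wildtypes 1, 3, 10 and 12. Knockout 10 lay within the wildtype range, and Txnip did not pass (log2 change -1.45, limma adjusted p = 0.0825). Klf10, a zinc finger gene that answers to ChREBP, was at 3.79, 4.14, 9.34 and 7.48 FPKM in knockouts 3, 9, 10 and 11, against 10.9, 16.1, 18.0 and 7.47 FPKM in wildtypes 1, 3, 10 and 12. It did not pass either (log2 change -0.98, limma adjusted p = 0.0645), and both genes were picked with their values in view.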
